A study of Mus musculus with 4 samples.

Results

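The transcription factors that set up and maintain the epithelium of the lung were compared between urethane-induced lung tumors and non-tumor lung of mice with and without Nrf2. The 10 genes were Nkx2-1, Foxa1, Foxa2, Foxa3, Sox2, Sox9, Hnf4a, Gata6, Cebpa and Id2, a list of lung and endoderm lineage factors, and their probes were found through the transcript accession of each probe. They had 18 of the 41170 non-control probes and were 10 of 32300 genes or transcripts on the array. Of the 18 probes, 15 passed the scanner software's flag for a signal well above background on 1 array or more, as did all 10 genes. Only 5 of the genes (Nkx2-1, Foxa2, Gata6, Cebpa and Id2) were well above background on all 4 arrays.

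The 4 groups were Nrf2-/- tumor, Nrf2+/+ tumor, Nrf2-/- non-tumor lung and Nrf2+/+ non-tumor lung. All mice were female, of the ICR strain, 6 months old, and had received urethane, a carcinogen that induces adenomas of the lung, as 1 g/kg intraperitoneally 16 weeks earlier, so the non-tumor lung was urethane-treated too. Tumors of 1.0 to 1.5 mm were cut from the lung surface. Each group was 1 pool of RNA from 8 mice on 1 Agilent whole-mouse-genome array, so no value below has a replicate check, the spread between mice is unknown, and a difference describes these pools. Whether a mouse gave both its tumors and its non-tumor lung to the pools is not stated.

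Signals are given in intensity units as read from each array. Differences are on the log2 scale after each array was scaled to its 75th percentile, which was 584, 555, 742 and 760 units in the group order above. A share of 54.2, 56.2, 62.1 and 63.5% of spots was well above background, and no spot was saturated. The Nrf2+/+ non-tumor array lay on 1 slide and the other 3 on another, so slide and group cannot be told apart for that array. The targeted gene Nfe2l2, which encodes Nrf2, read 6.94 and 5.13 units in Nrf2-/- tumor and Nrf2-/- non-tumor lung, neither well above background, against 7478 units in Nrf2+/+ tumor and 7913 units in Nrf2+/+ non-tumor lung. The drop in the Nrf2-/- pools was at least 268-fold in tumor and at least 376-fold in non-tumor lung, as the genotype labels say. Such a bound sets the bright signal against the lowest signal that was well above background on the dim array.

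Nkx2-1 specifies the lung from the foregut and drives the surfactant genes of alveolar type 2 cells. The Foxa factors are fork head proteins that open chromatin in endoderm, Gata6 acts beside them, and Cebpa and Id2 belong to maturing alveolar cells (Cebpa) and to the growing distal tip (Id2). In the developing lung Sox9 marks the distal tips and Sox2 the proximal airways, while Hnf4a is a factor of gut and liver. The 3 sequences below are the promoters of the factors that were at least 2-fold higher in the tumors of both genotypes and for which a promoter was read. Sox9 had no entry.

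Foxa3, chr7:19023490-19023789, minus strand: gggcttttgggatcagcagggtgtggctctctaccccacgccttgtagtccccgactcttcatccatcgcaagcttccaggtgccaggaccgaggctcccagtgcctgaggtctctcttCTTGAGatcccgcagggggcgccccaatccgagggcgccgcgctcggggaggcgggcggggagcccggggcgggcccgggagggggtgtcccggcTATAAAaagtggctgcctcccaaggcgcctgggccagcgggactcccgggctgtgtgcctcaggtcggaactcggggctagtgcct
Cebpa, chr7:35119043-35119342, plus strand: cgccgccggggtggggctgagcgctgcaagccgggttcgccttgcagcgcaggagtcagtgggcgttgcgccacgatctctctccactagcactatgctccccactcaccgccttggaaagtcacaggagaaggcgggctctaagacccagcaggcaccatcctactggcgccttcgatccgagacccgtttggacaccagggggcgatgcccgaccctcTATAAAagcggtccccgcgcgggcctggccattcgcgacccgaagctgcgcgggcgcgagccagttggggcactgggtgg
Id2, chr12:25096043-25096342, minus strand: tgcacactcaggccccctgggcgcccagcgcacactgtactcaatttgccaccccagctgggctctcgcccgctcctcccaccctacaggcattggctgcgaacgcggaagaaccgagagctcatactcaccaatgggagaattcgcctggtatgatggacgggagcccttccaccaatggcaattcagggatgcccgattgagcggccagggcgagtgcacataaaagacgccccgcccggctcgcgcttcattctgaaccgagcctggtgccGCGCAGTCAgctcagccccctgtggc

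They are RefSeq sequences of build GRCm38.p6, each 250 bases before and 50 after the start, read 5′ to 3′ on the gene's strand, and capitals mark motif matches. Their GC content was 69.0% for Foxa3, 67.3% for Cebpa and 63.3% for Id2. In all, 13 motifs were searched on both strands in 11 windows of 8 factors, and all 13 are given here, since the windows to print were settled after the matches had been seen. Beside Sox9, Gata6 was not searched, because chromosome 18, where it lies, was left out of the factors' windows. Over all 32851 windows of the table, the share with a match was 12.4% for TGACNNNGC (the core of the element bound by Nrf2), 3.65% for TGTTTAC and 13.4% for its shorter form TGTTTA (fork head), 10.8% for TTGCNNAA (C/EBP), 15.9% for CTCAAG and 13.6% for CAAGTG (Nkx2). It was 5.85% for AACAAAG and 18.7% for its shorter form ACAAAG (Sox), 11.2% for AGATAA (bound by the Gata factors), 7.15% for CACGTG (E-box), 0.475% for CAAAGTCCA (Hnf4a), 13.6% for TATAAA (the core promoter box) and 1.79% for TGACGTCA (cyclic AMP response element). The shorter forms lie inside the longer ones, so their matches overlap.

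Foxa3 held the Nkx2 motif CTCAAG on the opposite strand and the core promoter box 36 bases before the start. Cebpa held that box 30 bases before its start, and Id2 held the core of the Nrf2 element on the opposite strand 24 bases after it. In the windows that are not printed, Foxa1 held both forms of the fork head motif and both of the Sox motif, which overlap there. Foxa2 held the same Nkx2 motif as Foxa3, the Gata motif and the short Sox form. It also held the letters TATAAA, but on the opposite strand 208 bases before the start, unlike Foxa3 and Cebpa. Hnf4a held the short fork head form and the Gata motif, and Sox2 held the C/EBP motif and the short Sox form. The remaining 4 of the 13, which are CAAGTG and the E-box, Hnf4a and cyclic AMP motifs, matched no window of these factors, and the Nkx2-1 window matched none of the 13. A match is a run of letters and not a measured binding site.

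In tumors, Cebpa, Id2 and Foxa3 were higher than in non-tumor lung in both genotypes, and the airway factor Sox2 was lower. Sox9 was far higher in Nrf2+/+ tumor. In Nrf2-/- tumor it was higher only by a probe of 1 spot, and its probe of 10 spots was not well above background there. In Nrf2-/- mice 6 of 10 factors differed by at least 2-fold between tumor and non-tumor lung, 4 higher (Cebpa, Foxa3, Id2 and Sox9) and 2 lower (Foxa1 and Sox2), where 14.6% of all 19425 genes counted did so (5.43% higher, 9.12% lower). In Nrf2+/+ mice 7 of 9 did, 6 higher (Cebpa, Foxa2, Foxa3, Id2, Nkx2-1 and Sox9) and 1 lower (Sox2), where 23.4% of 19913 genes did (8.08% higher, 15.3% lower). The median difference of the factors was 0.46 in Nrf2-/- and 1.17 in Nrf2+/+ mice, against a median over all genes of -0.03 in each. A list of 12 reference genes had medians of 0.30 and 0.27, and small factor differences are to be read beside these. A gene entered a comparison if its brightest probe passed the background flag on either of the 2 arrays, so a factor dim in 1 tissue entered only through the other. With the bound in place of dim signals, Foxa1 and Sox2 no longer passed 2-fold in Nrf2-/- mice and 4 factors did.

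**Figure D1:**
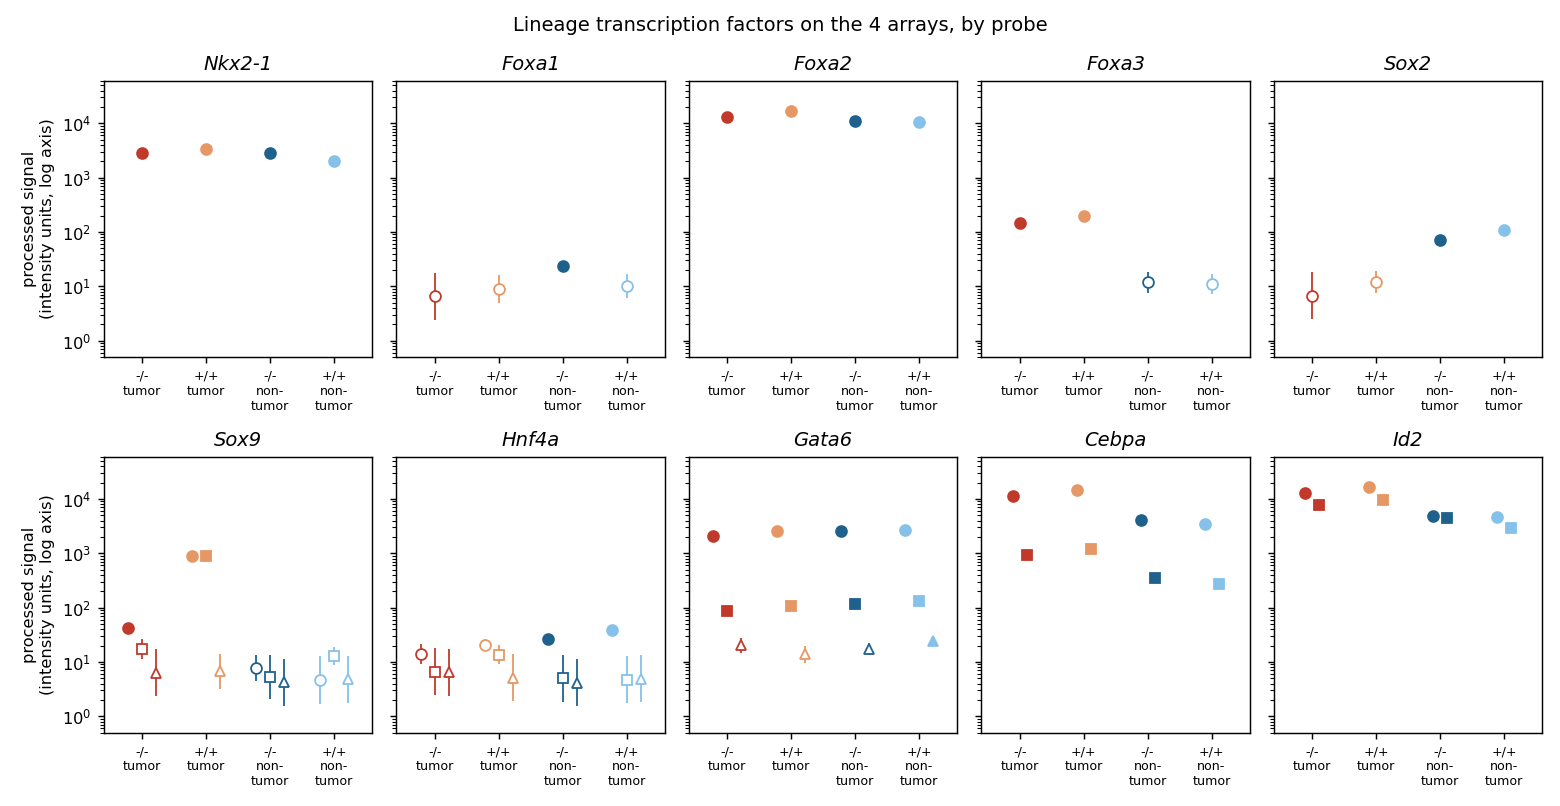
Processed signal (intensity units, log axis) of every probe of the 10 factors on the 4 arrays, with marker shapes for the probes of a gene, filled where well above background and open where not, and bars for the scanner software's error on the log2 scale. Cebpa and Id2 sit higher in both tumor pools, Sox2 and Foxa3 are dim in opposite tissues, and Sox9 reaches 42.4 units in Nrf2-/- tumor and 882 units in Nrf2+/+ tumor.

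Cebpa, a basic leucine zipper factor of alveolar differentiation, read 11527 units in Nrf2-/- tumor, 14488 units in Nrf2+/+ tumor, 4111 units in Nrf2-/- non-tumor lung and 3490 units in Nrf2+/+ non-tumor lung. Both tumor pools were above both non-tumor pools. The tumor difference was 1.83 in Nrf2-/- mice and 2.51 in Nrf2+/+ mice, each with a software error of 0.20. Its other probe, at 944, 1218, 358 and 272 units in the same order of groups, gave 1.74 and 2.62.

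Id2, an inhibitor of basic helix-loop-helix factors, read 12631 units in Nrf2-/- tumor, 16544 units in Nrf2+/+ tumor, 4806 units in Nrf2-/- non-tumor lung and 4615 units in Nrf2+/+ non-tumor lung. The pattern was like that of Cebpa, with differences of 1.74 in Nrf2-/- and 2.29 in Nrf2+/+ mice. The other Id2 probe gave 1.15 and 2.15. The probes also parted in non-tumor lung, where Nrf2-/- minus Nrf2+/+ was 0.09 by the brighter probe and 0.63 by the other, with a software error of 0.20 for each.

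Nkx2-1 was measured by up to 10 spots of 1 probe. It read 2791 units in Nrf2-/- tumor, 3353 units in Nrf2+/+ tumor, 2814 units in Nrf2-/- non-tumor lung and 2046 units in Nrf2+/+ non-tumor lung. It was lowest in Nrf2+/+ non-tumor lung, the array on its own slide. The tumor difference was 0.33 in Nrf2-/- and 1.17 in Nrf2+/+ mice, and these differed by -0.83 with a software error of 0.29. With spike-in scaling the Nrf2+/+ difference was 0.99, just under the 2-fold mark. A lower tumor difference in Nrf2-/- mice was not particular to Nkx2-1. The same contrast was -0.496 for Foxa2, -0.674 and -0.873 for the Cebpa probes, and -0.556 and -0.998 for the Id2 probes. Each had a software error of 0.29. For Gata6 it was -0.389 and -0.251 by the brighter probes. The dimmest Gata6 probe, well above background on 1 array, gave 0.91. All these values share the same 4 arrays, so they are not independent.

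Foxa2, the main fork head factor of the adult lung, read 13016 units in Nrf2-/- tumor, 16554 units in Nrf2+/+ tumor, 11009 units in Nrf2-/- non-tumor lung and 10698 units in Nrf2+/+ non-tumor lung. Tumor pools were again above non-tumor pools, by 0.59 in Nrf2-/- and 1.08 in Nrf2+/+ mice. The Nrf2+/+ value was under the 2-fold mark with quantile normalization (0.86) and with spike-in scaling (0.91).

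Foxa3, the fork head factor of goblet cells and liver, read 145 units in Nrf2-/- tumor and 194 units in Nrf2+/+ tumor, against 11.9 units in Nrf2-/- non-tumor lung and 10.9 units in Nrf2+/+ non-tumor lung, where it was not well above background. It was at least 8.99-fold higher in tumor in Nrf2-/- mice and at least 12.2-fold higher in Nrf2+/+ mice. Foxa1, whose protein overlaps Foxa2 in function, was well above background in Nrf2-/- non-tumor lung alone. It read 6.58 units in Nrf2-/- tumor, 8.98 units in Nrf2+/+ tumor, 23.3 units in Nrf2-/- non-tumor lung and 10.1 units in Nrf2+/+ non-tumor lung. The one value above background lay close to the lowest signal so called on that array, 20.6 units, and the tumor difference in Nrf2-/- mice has no bound above 1-fold.

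Sox2 read 6.70 units in Nrf2-/- tumor and 11.8 units in Nrf2+/+ tumor, neither well above background, against 71.7 units in Nrf2-/- non-tumor lung and 109 units in Nrf2+/+ non-tumor lung. It was at least 1.92-fold lower in tumor in Nrf2-/- mice and at least 3.45-fold lower in Nrf2+/+ mice. With normexp background correction, which compresses low signals, the differences were -0.70 and -0.72 and no longer passed the mark. Markers of ciliated cells, which lie in the Sox2-positive airway, were lower beside it. At least 2-fold lower in tumor were 9.12% of all genes in Nrf2-/- and 15.3% in Nrf2+/+ mice. Of the ciliated list, 14 of 16 genes in Nrf2-/- and 16 of 17 in Nrf2+/+ mice were so. The list's medians were -2.56 and -2.05. Its summed signal was 21.2 and 24.4 times the 75th percentile in Nrf2-/- and Nrf2+/+ tumor, against 54.3 and 61.7 times in Nrf2-/- and Nrf2+/+ non-tumor lung. Foxj1, the factor that drives motile cilia, read 35.0 units in Nrf2-/- tumor and 79.3 units in Nrf2+/+ tumor, against 415 and 513 units in Nrf2-/- and Nrf2+/+ non-tumor lung. The club and secretory airway list was more mixed. In Nrf2-/- tumor 7 of its 10 genes were lower and 2 higher, and in Nrf2+/+ tumor 4 of 10 were lower and 1 higher. Tumors were cut from the lung surface, and how much surrounding lung they carried was not measured. In such bulk RNA fewer cells of a type and less RNA per cell cannot be told apart.

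Gata6 read 2099 units in Nrf2-/- tumor, 2604 units in Nrf2+/+ tumor, 2601 units in Nrf2-/- non-tumor lung and 2656 units in Nrf2+/+ non-tumor lung by its brightest probe. The tumor difference was 0.04 in Nrf2-/- and 0.42 in Nrf2+/+ mice. Another probe gave -0.13 and 0.12, and both small Nrf2-/- values changed sign under another scaling or correction. The dimmest Gata6 probe read 20.3 units in Nrf2-/- tumor, 13.9 units in Nrf2+/+ tumor, 17.6 units in Nrf2-/- non-tumor lung and 24.4 units in Nrf2+/+ non-tumor lung, well above background in Nrf2+/+ non-tumor lung alone. Hnf4a was dim throughout. Its best probe read 14.0 and 20.5 units in Nrf2-/- and Nrf2+/+ tumor, not well above background, against 26.0 and 39.3 units in Nrf2-/- and Nrf2+/+ non-tumor lung, and was at least 1.24-fold lower in Nrf2+/+ tumor. Its other 2 probes were below background on all 4 arrays, and with normexp both tumor differences of the best probe turned positive (0.23 and 0.09).

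Sox9 had 3 probes, and they did not read alike. The probe used for the gene has 1 spot. By that probe Sox9 read 42.4 units in Nrf2-/- tumor, where the lowest signal called well above background was 29.4 units. It read 882 units in Nrf2+/+ tumor, against 7.68 and 4.67 units in Nrf2-/- and Nrf2+/+ non-tumor lung, neither well above background. It was at least 2.62-fold higher in tumor in Nrf2-/- mice and at least 55.4-fold higher in Nrf2+/+ mice. The probe with 10 spots read 883 units in Nrf2+/+ tumor, its spots spanning 827 to 941 units, against no signal well above background in the other 3 pools. Its spots in Nrf2-/- tumor spanned 8.33 to 23.2 units, far from the Nrf2+/+ tumor range. The third probe read 6.32, 6.69, 4.28 and 4.84 units in the group order above and was below background throughout.

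**Figure D2:**
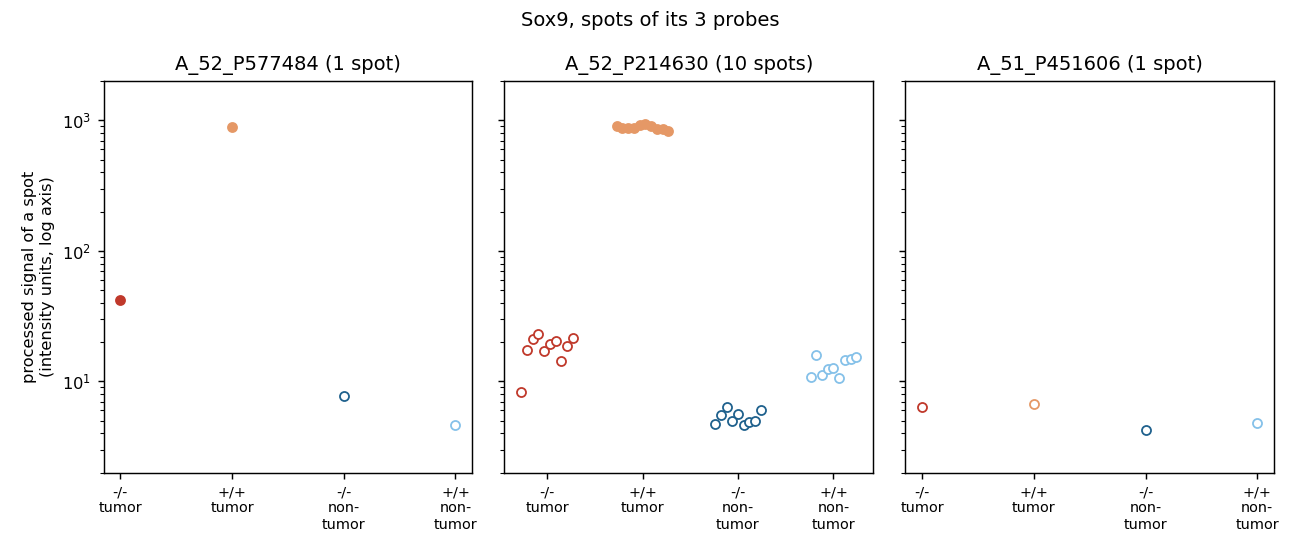
Processed signal (intensity units, log axis) of each spot of the 3 Sox9 probes on the 4 arrays, filled where well above background and open where not. The left and middle panels show Nrf2+/+ tumor near 882 and 883 units with Nrf2-/- tumor far below, and the right panel shows no signal above background in any pool.

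Set directly against each other, the tumors of the 2 genotypes differed in Sox9 by -4.45 (Nrf2-/- minus Nrf2+/+, software error 0.29), which is 21.9-fold lower in Nrf2-/- tumor, and by at least 31.6-fold lower with the probe of 10 spots. Both tumor arrays lay on the same slide. The Sox9 difference was -3.08 with normexp and between -4.35 and -4.49 under the other scalings. In Nrf2-/- mice the tumor difference of Sox9 was 0.74 with normexp, under the 2-fold mark.

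Sox9 was the 1 of 7 factors counted that differed by at least 2-fold between the tumors, where 7.96% of 17824 genes did (4.29% higher and 3.67% lower in Nrf2-/-). The other 6 were also lower in Nrf2-/- tumor but by less than 2-fold: -0.34 for Nkx2-1, -0.42 for Foxa2, -0.49 for Foxa3, -0.38 for Gata6, -0.40 for Cebpa and -0.46 for Id2. Thus 7 of 7 lay below 0, where 53.7% of all genes did, and the median was -0.42 against -0.03 over all genes. Each of these differences shares 1 pair of arrays, so they are not independent of each other. Other lists also shifted between the tumors. Their medians were -0.57 for distal tip, 0.07 for alveolar type 2, 0.27 for alveolar type 1, -0.49 for club and -0.97 for ciliated genes. They were 0.25 for endothelial, 0.44 for fibroblast, -0.60 for muscle, 0.44 for macrophage, 0.57 for lymphocyte and 1.17 for mesothelial genes. The part of cell composition in these differences was not tested.

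In non-tumor lung 1 of 8 factors counted, Foxa1, was at least 2-fold higher in Nrf2-/- mice, where 7.65% of 20190 genes passed the mark (3.04% higher, 4.61% lower). Foxa1 was at least 1.10-fold higher by its bound, and did not pass 2-fold by that bound or with normexp (0.42). Nkx2-1 was 0.49 higher in Nrf2-/- non-tumor lung. Sox2 differed by -0.57 and Hnf4a by -0.56, both from low signals, while Cebpa differed by 0.27, Id2 by 0.09, Foxa2 by 0.08 and Gata6 by less than 0.01.

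**Figure D3:**
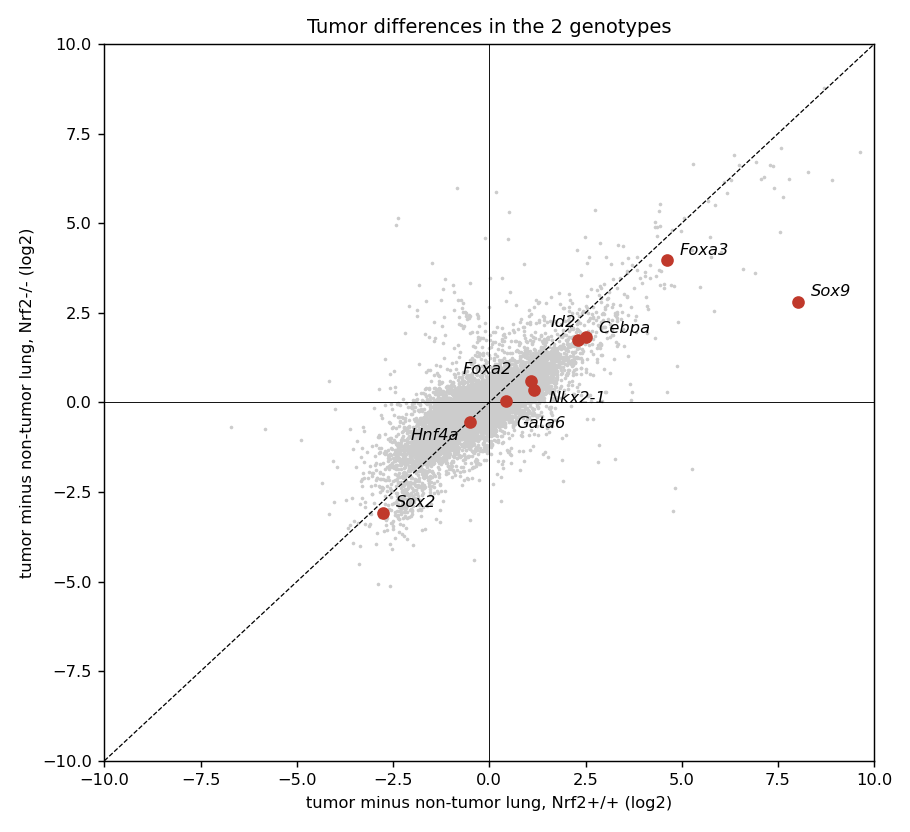
Tumor minus non-tumor lung on the log2 scale in Nrf2-/- mice (vertical) against Nrf2+/+ mice (horizontal), grey for all genes counted in both and red for the 9 lineage factors counted in both, with the dashed line of equal differences. Cebpa and Id2 lie high in both, as do Foxa3 and Sox9, with Sox9 below the line. The positions of Sox9 and Foxa3 rest on non-tumor signals, and that of Sox2 on tumor signals, that were not well above background, so for these factors the bounds in the text apply.

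The one test that 4 arrays allow is an additive limma fit of tissue and genotype, which leaves 1 residual degree of freedom. Its error holds the genotype dependence of the tumor difference as well as array error. After Benjamini-Hochberg adjustment over 20553 genes it called 0 genes (0.0%) for tissue, with 6095 at an unadjusted p under 0.05 (29.7%), and 0 (0.0%) for genotype, with 1910 (9.29%). These counts depend on the setting: for tissue, limma called 3123 genes with normexp, 2155 with median scaling, 3852 when every array had to be above background and 769 with no filter, among them 3 to 5 of the factors. The limma tissue effects with the lowest adjusted p among the factors were 4.28 for Foxa3 (SE 0.24), -2.91 for Sox2 (SE 0.18), 2.17 for Cebpa (SE 0.24) and 2.02 for Id2 (SE 0.22), each at an adjusted p of 0.0707. Sox9 had a limma tissue effect of 5.41 (SE 1.47) with an adjusted p of 0.137. Foxa3, Sox2 and Sox9 passed the filter only through the tissue where they were bright, so their effects and SEs rest on signals below background in the other tissue and support nothing beyond the bounds given above. For genotype, the adjusted limma p of the factors lay between 0.455 and 0.955.

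Genes that the lineage factors are known to act on or with were described from lists, by their counts at the 2-fold mark. The counts are to be read against the shares of all genes, which were 5.43% higher and 9.12% lower in Nrf2-/- tumor and 8.08% higher and 15.3% lower in Nrf2+/+ tumor. Of lung genes known as Nkx2-1 targets, 6 of 17 passed the mark upward and 2 downward in Nrf2-/- tumor, and 8 of 17 upward and 2 downward in Nrf2+/+ tumor, with medians of 0.64 and 0.70. Sftpb, a surfactant protein gene, read 126848 and 83629 units in Nrf2-/- and Nrf2+/+ tumor, against 61291 and 40211 units in Nrf2-/- and Nrf2+/+ non-tumor lung. The log2 tumor differences in Nrf2-/- and Nrf2+/+ mice were 1.02 and 1.55 for Sftpd, another surfactant protein gene, 1.81 and 2.15 for the membrane mucin gene Muc1, and 1.57 and 3.31 for Dcstamp. Hopx, a gene of alveolar type 1 cells, had differences of -1.07 and -1.79. Markers of alveolar type 2 cells had medians of 1.04 and 1.17, and those of alveolar type 1 cells of -0.66 and -1.16. The target list shares many genes with the type 2 list, among them Sftpb, Sftpd and Muc1. It shares Hopx and others with the type 1 list, so the target counts and these medians are not separate observations. The part of cell composition in the factors' differences was not tested.

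Of gut and liver genes known as Hnf4a or Foxa targets, 11 of 22 passed the mark upward and 2 downward in Nrf2-/- tumor, and 8 of 21 upward and 2 downward in Nrf2+/+ tumor. Gkn2, a gastrokine of the stomach lining, read 4283 and 3498 units in Nrf2-/- and Nrf2+/+ tumor, against 63.5 and 15.5 units in Nrf2-/- and Nrf2+/+ non-tumor lung. Cldn2, a claudin of leaky epithelia, was at least 110-fold higher in tumor in Nrf2-/- and at least 160-fold higher in Nrf2+/+ mice. The liver genes Afp, for alpha-fetoprotein, and Alb, for albumin, had tumor differences of 2.52 and 3.23 in Nrf2-/- mice and of 3.32 and 5.47 in Nrf2+/+ mice. Tff2, a trefoil factor of the stomach, went the other way. It read 10.3 and 5.73 units in Nrf2-/- and Nrf2+/+ tumor, not well above background, against 120 and 33.3 units in Nrf2-/- and Nrf2+/+ non-tumor lung, and its tumor level was lower by at least 3.21-fold in Nrf2-/- mice and by at least 1.05-fold in Nrf2+/+ mice.

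Of distal lung tip genes, 3 of 15 were higher and 2 lower in Nrf2-/- tumor, and 9 of 16 higher and 3 lower in Nrf2+/+ tumor. Etv4, a factor induced by fibroblast growth factor signalling at the tip, read 343 and 662 units in Nrf2-/- and Nrf2+/+ tumor, against 26.3 and 16.8 units in Nrf2-/- and Nrf2+/+ non-tumor lung, the last not well above background. Clu, which encodes clusterin, had tumor differences of 2.73 and 3.38 in Nrf2-/- and Nrf2+/+ mice, and Prom1, which encodes prominin, of -1.14 and -1.16. Sox11 was not well above background in either tumor pool and read 29.4 and 37.6 units in Nrf2-/- and Nrf2+/+ non-tumor lung, at least 1.19-fold lower in Nrf2+/+ tumor and with no bound above 1-fold in Nrf2-/- tumor.

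Of other epithelial transcription factors, 5 of 29 were higher and 3 lower in Nrf2-/- tumor, and 10 of 28 higher and 5 lower in Nrf2+/+ tumor. Beside Etv4, Foxj1 and Hopx, the tumor differences in Nrf2-/- and Nrf2+/+ mice were 1.51 and 2.33 for Elf5, 1.12 and 1.92 for Ehf and 1.11 and 2.06 for Spdef, all of them ETS factors of epithelia. Of gut and liver transcription factors, 4 of 11 were higher and 1 lower in Nrf2-/- tumor, and 3 of 12 higher and 3 lower in Nrf2+/+ tumor. Hhex, an endoderm homeobox factor, had differences of 1.16 in Nrf2-/- and 2.09 in Nrf2+/+ mice. Nr1i2, the pregnane X receptor, was lower in tumor by at least 1.63-fold in Nrf2-/- mice and by at least 2.37-fold in Nrf2+/+ mice. Onecut2, a liver and endoderm factor, was at least 11.5-fold higher in Nrf2-/- tumor and was not well above background in either Nrf2+/+ tissue.

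**Figure D4:**
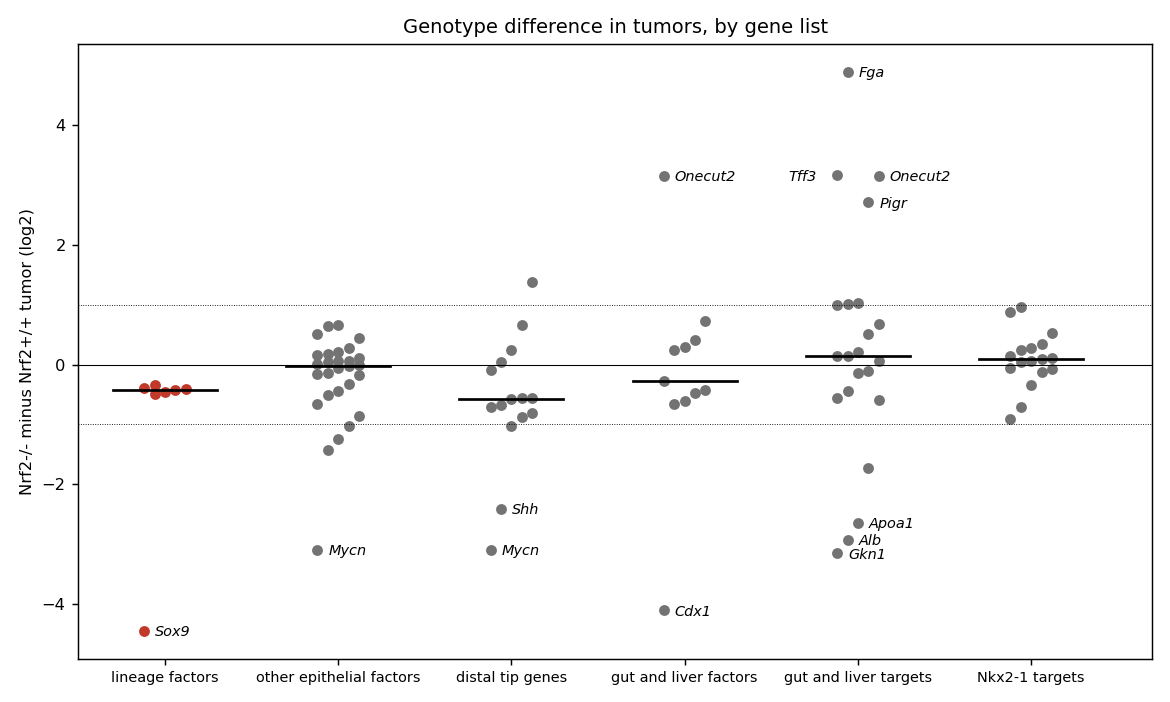
Nrf2-/- minus Nrf2+/+ tumor on the log2 scale for each gene of 6 lists that was well above background in a tumor pool, with a bar at each list's median and dotted lines at 2-fold. Sox9 stands at -4.45 below the other lineage factors, and genes past 4-fold are named.

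In the rest of the Sox family 0 of 11 genes passed the mark upward and 4 downward in Nrf2-/- tumor, and 1 of 11 upward and 6 downward in Nrf2+/+ tumor. Among GATA, C/EBP and Id relatives none of 10 in Nrf2-/- and none of 11 in Nrf2+/+ tumor was higher, with 3 and 5 lower. Sox7, an endothelial factor, had tumor differences of -1.05 and -1.59 in Nrf2-/- and Nrf2+/+ mice, and Sox13 of -1.18 and -1.03. Gata2, an endothelial and blood cell factor, read 1846 and 1654 units in Nrf2-/- and Nrf2+/+ tumor, against 5522 and 8707 units in Nrf2-/- and Nrf2+/+ non-tumor lung. Gata3 had differences of -1.12 and -1.53, and Gata1, an erythroid factor that was not well above background in either tumor pool, was at least 2.76-fold lower in Nrf2+/+ tumor, with no bound above 1-fold in Nrf2-/- tumor. Endothelial markers were lower beside them, with 8 of 18 and 13 of 18 at least 2-fold lower in Nrf2-/- and Nrf2+/+ tumor. The endothelial list shares Sox17 and Sox18 with the Sox family list. The downward Sox and GATA counts in Nrf2-/- tumor include Sox11 and Gata1, which had no bound above 1-fold there.

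The genes most like each factor were taken as the 3 with the smallest root mean square difference of centred log2 levels over the 4 arrays, which is a description over 4 points. For Cebpa they were Camsap3 (0.024), Stra6l (0.041) and Wnk4 (0.055), and for Id2 they were Rbp4 (0.044), Stra6l (0.067) and Egfl6 (0.071), so Stra6l was near both. For Nkx2-1 they were Fam71e1 (0.014), Chaf1b (0.019) and Tmem135 (0.024), for Foxa2 they were Adam4 (0.022), Gsta4 (0.027) and Paics (0.030), and for Gata6 they were Tug1 (0.013), Zfp512b (0.017) and Wdr3 (0.017). These 5 factors were well above background on all 4 arrays and had 12290 candidates each. The other 5 were set only against the genes that were above background on the same arrays, and part of each of their distances comes from signals below background, so the distances cannot be compared between factors. With 691 candidates, Sox2 lay nearest to Nek11 (0.076), Armh1 (0.14) and Lrrc34 (0.15), and Hnf4a lay near Nog (0.065) and Spa17 (0.097). With 181 candidates, Foxa1 lay nearest to Elavl4 (0.12), Zfp560 (0.15) and Mcu (0.16). With 35 candidates, Foxa3 lay nearest to Rdh16f2 (0.26), Npy2r (0.32) and Fam83a (0.53), and Sox9 to Ankrd22 (0.87), Cyp2c29 (1.18) and Meltf (1.26).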

How the data were processed

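Per the labels' protocols, RNA pooled from 8 mice per group was labelled with Cy3 from 500 ng. Per the file headers, Agilent Feature Extraction 10.7.3.1 read the arrays (protocol GE1_107_Sep09, array design 014868, annotated on mm9), and the deposited values are spot intensity after background subtraction and detrending, on a linear scale. The submitters' value table equalled that intensity within 0.497%. No normalization between arrays is given in the sources used here.

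Spots flagged as non-uniform or outlying were left out, spots of a probe were averaged, and log2 intensity minus the log2 75th percentile of the array was used. A probe was well above background where most of its spots carried that flag, and the brightest probe stood for a gene. The mark was 2-fold, and limma 3.58.1 in R 4.3.3 gave the additive fit. Its code was run on simulated data that held no genotype dependence of the tumor difference. That run checks the code and not whether the additive fit suits these data. Symbols came from RefSeq (GRCm38.p6) through accessions, for 26686 of 41170 probes, since the files used here hold no gene name column. They hold no mean signal either, so normexp (offset 50) used the median signal. With 1 array per group the number of arrays limits the precision.

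Values were given for every factor and its probes. The naming rule took, from each other list, genes past 2-fold the same way in tumors of both genotypes, at most 4 each way, and the 3 genes nearest to each factor. It was applied to the lists of transcription factors and of their targets and tip genes, while cell type marker lists are given by counts and medians. Some genes that the rule takes are not reported here. The factors and lists were chosen with earlier results of these data known.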

Additional observations from a re-analysis of the deposited data

How the results depend on the processing

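Alternatives covered background correction, scaling, the probe of a gene, the filter, the fold mark and the value table, and the bound for dim signals and the median signal in normexp were added after seeing the data. With 10 factors, those past 2-fold in tumor against non-tumor lung numbered 6 in Nrf2-/- mice, 3 with normexp and 2 when a gene had to be above background on all 4 arrays, and 7 in Nrf2+/+ mice, 4 with that filter. Between tumors the count was 1, and 0 with that filter, and between non-tumor lungs it was 1, and 0 with normexp, with that filter or with the bound. The filter removes dim factors by construction. The additive fit called 0 factors for tissue, but 5 with normexp (Cebpa, Foxa2, Foxa3, Id2, Sox2), 5 with median scaling (Cebpa, Foxa3, Id2, Sox2, Sox9), 3 with the filter and 4 with no filter, and the cause was not tested. Over all genes it then called 3123, 2155, 3852 and 769 for tissue and 52, 78, 150 and 1 for genotype. It called no factor for genotype under any alternative run. Counts over all genes were 2827, 4660, 1419 and 1545 in the order of comparisons above, against 1253, 2289, 587 and 455 with normexp, 1583, 2924, 740 and 546 with the filter, and 5525, 8363, 3057 and 3466 at 1.5-fold. No filter gave 2181 between tumors and 2480 between non-tumor lungs. The all-gene median shifted under median scaling by 0.14 and 0.29 in the tumor comparisons and by 0.14 between non-tumor lungs, and under spike-in scaling by -0.16 and -0.17 in the tumor comparisons. The share of genes past 2-fold that were higher was 37.3% in Nrf2-/- and 34.5% in Nrf2+/+ tumor and 39.7% between non-tumor lungs, and 48.1, 55.1 and 51.6% with median scaling. No called value of a factor changed sign. Small differences, mostly of Gata6 and Hnf4a, did so in 12 cases, where a difference counts once for each alternative that turned it. A slide block and leaving out an array were not run, since neither leaves a residual degree of freedom. No paired analysis was possible because each group has 1 array.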

Other observations

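Beside Sox9, other genes of the transcription factor, target and tip lists differed between the tumors of the 2 genotypes, in both directions. All those whose signals, including signals not well above background, differed by over 4-fold are given here, a mark chosen after the values were seen. Of 22 genes counted in the gut and liver target list, 7 passed the 2-fold mark upward and 4 downward in Nrf2-/- against Nrf2+/+ tumor. Over all 17824 genes, 4.29% were higher and 3.67% lower. Some of the list's genes passed through a signal not well above background in 1 tumor pool. By their bounds, Krt20 was at least 1.80-fold higher and Pgc at least 1.15-fold lower in Nrf2-/- tumor.

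Higher in Nrf2-/- tumor was Fga, a fibrinogen chain gene, at 1187 units in Nrf2-/- tumor, against 38.0 units in Nrf2+/+ tumor, a log2 difference of 4.89. Pigr, the receptor that carries immunoglobulins across epithelia, read 952 units in Nrf2-/- tumor, against 138 units in Nrf2+/+ tumor. Fga and Pigr were also higher in Nrf2-/- than in Nrf2+/+ non-tumor lung, by 1.43 and 1.18. Tumor minus non-tumor lung was 0.30 in Nrf2-/- and -1.24 in Nrf2+/+ mice for Pigr, and 3.48 and 0.02 for Fga. Onecut2 and the trefoil factor gene Tff3 were not well above background in Nrf2+/+ tumor, and were at least 7.63-fold and at least 2.89-fold higher in Nrf2-/- tumor, where they read 185 and 70.3 units.

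Lower in Nrf2-/- tumor was Mycn, a Myc family factor, at 138 units in Nrf2-/- tumor, against 1123 units in Nrf2+/+ tumor. Alb read 254 units in Nrf2-/- tumor, against 1837 units in Nrf2+/+ tumor, and Sox6 read 56.6 units in Nrf2-/- tumor, against 227 units in Nrf2+/+ tumor. The intestinal homeobox factor gene Cdx1, the signal gene Shh, the apolipoprotein gene Apoa1 and the gastrokine gene Gkn1 were not well above background in Nrf2-/- tumor, and were at least 4.41-fold, 2.97-fold, 2.14-fold and 1.95-fold lower there. These are single pools with no replicate, and none of the differences was tested.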
